A study of Mus musculus with 11 samples.

Results

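The expression of 8 genes linked to the TREM2 receptor and to disease-associated macrophages (macs), namely Trem2, Tyrobp, Spp1, Gpnmb, Cst7, Cd9, Cd63 and Lgals3, was followed in macs of 5 mouse tissues with and without the transcription factor ZEB2. The genes were taken by name from the count tables, where each had 1 row among 27998 genes. The measurement was droplet-based sequencing of single cells (10x Genomics), in which unique molecular identifiers (UMIs) are counted at the 3′ end of transcripts. It covered microglia, Kupffer cells (KCs) of the liver, alveolar macs (AMs) of the lung, colonic macs (CMs) and splenic macs (SMs), sorted by flow cytometry as CD64 and F4/80 positive cells, with Clec4F in addition for KCs and CD11c and SiglecF for AMs. CMs and SMs were also sorted as negative for Ly6C, Ly6G and SiglecF, and microglia as cells with intermediate CD45. The study used Siglecf among its markers of Zeb2-deficient macs, so this gate could leave out such CMs and SMs, which was not tested. Each tissue gave 1 WT library (Zeb2fl/fl, with loxP sites around Zeb2 but no CRE recombinase) and 1 Zeb2KO library, labelled Fcgr1-crexZeb2fl/fl. An additional WT KC library came from Nr1h3fl/fl mice, in which Nr1h3, the gene of the nuclear receptor LXRα, was flanked by loxP sites and no CRE was present.

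The mice were 6 to 8 weeks old, of both sexes and on a C57Bl/6 background, and no treatment was named. The study's methods, results and figure legends all gave Clec4f-cre for the liver and Itgax-cre for the lung, where the labels gave Fcgr1-cre. The counts could not check either. Fcgr1-cre, Clec4f-cre and Itgax-cre take the promoters of the genes for CD64, Clec4F and CD11c. None of them is limited to macs: by the study's account Fcgr1-cre also acted in B, T and dendritic cells and Clec4f-cre in some B cells, and CD11c is also used by dendritic cells. A Zeb2KO library can also hold cells that kept an allele. Counting at the 3′ end did not check the deletion, because the recombined allele keeps that end. How many mice were pooled per library was not given in the sources used here. Each group was 1 library, so no difference between genotypes within a tissue had a replicate check, and intervals cover counting error only.

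TREM2 is a surface receptor for lipids, lipoproteins and cell debris, and it signals through TYROBP (DAP12), a small adaptor that carries an activation motif and also serves other receptors of myeloid and natural killer cells. In the brain, microglia near amyloid or dying neurons leave their resting state and switch on a set of genes in part through TREM2, and macs of injured or lipid-laden liver, lung, fat and vessel wall take on many of the same genes. Spp1 (osteopontin) and Lgals3 (galectin-3) encode secreted proteins, Gpnmb a transmembrane glycoprotein of the endosomal system, Cst7 (cystatin F) an inhibitor of lysosomal cathepsins, and Cd9 and Cd63 tetraspanins of the plasma membrane and of late endosomes. ZEB2 is a zinc finger factor that binds E-box sequences such as CACCTG and mostly represses the genes it binds.

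The genes lie on 7 chromosomes of the mouse genome (GRCm38/mm10, GENCODE annotation). Trem2 is at chr17:48346401-48354147 on the plus strand, Tyrobp at chr7:30413760-30417585, Spp1 at chr5:104435118-104441050, Gpnmb at chr6:49036546-49070929, Cst7 at chr2:150570415-150578944, Cd63 at chr10:128900989-128912822 and Lgals3 at chr14:47367751-47386160, all on the plus strand, and Cd9 at chr6:125460266-125494791 on the minus strand. Both tetraspanin genes have a processed pseudogene in the annotation, Cd9-ps and Cd63-ps, without a row in the files used, so how reads shared with a pseudogene were counted is uncertain. The sequence just upstream of the start site was read from a set of RefSeq promoters (GRCm38.p6) that held 7 of the 8 genes and not Tyrobp. The motif CACCTG or its reverse complement CAGGTG was looked for on both strands of the 250 bases before each start, and 5657 of 32851 RefSeq promoters (17.2%) held it. Upstream parts are printed below for the 6 members with the largest called differences between WT and Zeb2KO, 5′ to 3′ along the gene, with the motif in capitals.
Spp1: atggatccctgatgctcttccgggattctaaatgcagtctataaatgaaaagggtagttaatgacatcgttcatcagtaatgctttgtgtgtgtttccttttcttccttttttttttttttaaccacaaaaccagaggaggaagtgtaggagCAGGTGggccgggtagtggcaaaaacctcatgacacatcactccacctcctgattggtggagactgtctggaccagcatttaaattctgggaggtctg
Cd9: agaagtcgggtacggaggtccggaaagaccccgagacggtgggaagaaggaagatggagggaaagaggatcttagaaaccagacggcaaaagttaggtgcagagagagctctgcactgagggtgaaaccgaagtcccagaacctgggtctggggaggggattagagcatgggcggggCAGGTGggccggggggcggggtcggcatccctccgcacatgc
Gpnmb: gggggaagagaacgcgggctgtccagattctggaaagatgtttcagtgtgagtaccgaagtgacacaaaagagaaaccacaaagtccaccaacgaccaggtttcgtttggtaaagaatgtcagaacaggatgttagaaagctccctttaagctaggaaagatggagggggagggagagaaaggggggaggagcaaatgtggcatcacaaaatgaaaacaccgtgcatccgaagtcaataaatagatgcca
Cst7: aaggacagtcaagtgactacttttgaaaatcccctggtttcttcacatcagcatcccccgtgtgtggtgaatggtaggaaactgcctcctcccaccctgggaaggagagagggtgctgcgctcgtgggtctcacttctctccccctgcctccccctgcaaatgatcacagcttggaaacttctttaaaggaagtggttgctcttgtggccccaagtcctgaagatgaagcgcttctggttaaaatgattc
Cd63: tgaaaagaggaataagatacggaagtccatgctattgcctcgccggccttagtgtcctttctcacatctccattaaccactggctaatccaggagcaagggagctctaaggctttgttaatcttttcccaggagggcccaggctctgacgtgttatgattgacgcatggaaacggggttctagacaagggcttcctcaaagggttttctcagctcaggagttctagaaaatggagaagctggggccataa
Trem2: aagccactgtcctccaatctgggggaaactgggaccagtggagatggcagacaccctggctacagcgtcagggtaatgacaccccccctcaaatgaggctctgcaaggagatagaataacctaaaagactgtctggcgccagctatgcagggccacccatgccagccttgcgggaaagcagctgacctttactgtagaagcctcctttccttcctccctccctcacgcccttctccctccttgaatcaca

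The Spp1 sequence is chr5:104434861-104435110 on the plus strand and holds the motif from position -98, counted back from the start site. The Cd9 sequence is chr6:125494792-125495010 on the minus strand. Its motif begins at -73 from the RefSeq start, and the bases between the end of the printed sequence and that start overlap an annotated exon and are not shown. These promoters share 14 bases, gCAGGTGggccggg, the longest run shared by any pair of the members' windows, the next longest being 11 bases. The Lgals3 window (chr14:47373610-47373859, plus strand) holds the motif at -223 and at -114. It lies within the annotated span of the gene and overlaps an annotated exon. No match was found in the windows of Cst7 (chr2:150570165-150570414, plus strand), Cd63 (chr10:128909095-128909344, plus strand, within the annotated span of the gene, outside its exons), Trem2 (chr17:48346151-48346400, plus strand) and Gpnmb (chr6:49036268-49036517, plus strand), nor before a second start of Spp1 in RefSeq. These matches are descriptions of letters in a window, and no binding was measured here. Shorter or paired sites were not looked for.

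After removal of outlying barcodes (4.66% to 9.22% per library) and of clusters led by markers of other cell types (0% in microglia to 22.04% in WT SMs), each library kept 2830 (WT microglia) to 6974 (WT AMs) cells, and 3469 Nr1h3fl/fl WT KCs were left. Their UMIs summed to 8204913 in WT SMs and up to 42983881 in WT CMs, with a median of 2219.5 to 9234 UMIs per cell. Levels are UMIs summed over the cells of a library and scaled to a library total of 1000000 (CPM), and they compare a gene between libraries, not genes with each other. The defining markers of each tissue were found where the labels put them: the summed level of the microglia list was 26729 CPM in WT and 17412 CPM in Zeb2KO microglia and at most 632 CPM elsewhere, and that of the KC list 16078 CPM in WT, 12930 CPM in Nr1h3fl/fl WT and 7184 CPM in Zeb2KO KCs against at most 1216 CPM elsewhere. Lists of AM and SM markers were likewise highest in their own tissue. At most 76 cell barcodes were shared by any pair of libraries (WT and Zeb2KO AMs).

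Each of the genes had its own order of tissues, shown for the WT libraries first. Trem2 was by far highest in microglia, at 2870.4 CPM (95% exact Poisson interval 2840.5 to 2900.4), followed by CMs at 222 CPM, KCs at 43.8 CPM and AMs at 36.6 CPM, and SMs held a single Trem2 UMI. The additional WT KC library had 36.0 CPM (33.3 to 38.8). The intervals of neighbours in this order did not overlap within the Zeb2fl/fl libraries, but the additional WT KC value lay within the AM interval of 34.4 to 38.9 CPM, so the order of KCs and AMs changed with the WT KC library taken. Trem2 was detected in 92.3% of WT microglia when every cell was thinned to 1000 UMIs, and in 18.0% of CMs, 3.82% of KCs and 3.20% of AMs.

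Tyrobp, the adaptor, was present at high levels in all tissues, with 5081 CPM in WT KCs, 4706 CPM in Nr1h3fl/fl WT KCs, 3213 CPM in microglia, 2828 CPM in CMs, 2197 CPM in AMs and 1456 CPM in SMs. The tissue with the most Trem2 was therefore not the tissue with the most Tyrobp, and SMs kept a Tyrobp UMI in 67.9% of thinned cells while 0 of 2961 had 1 of Trem2, which allows up to 0.101% of cells with a UMI at this depth and sets no limit on cells that express the gene.

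Of the secreted proteins, Spp1 was highest in WT AMs at 568 CPM, where 34.5% of thinned cells held a UMI, and reached 27.8 CPM in CMs, 11.2 CPM in microglia, 1.23 CPM in KCs and no UMI in SMs, which allows up to 0.366 CPM. Lgals3 was highest in WT AMs at 1991 CPM and in CMs at 1328 CPM, followed by KCs at 745 CPM and SMs at 253 CPM, and it was lowest in microglia at 8.43 CPM. Trem2 and Lgals3 thus stood at opposite ends in microglia.

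Gpnmb was found in CMs at 152 CPM and AMs at 99.7 CPM, and at under 1 CPM in microglia, KCs and SMs, whose intervals overlapped from neighbour to neighbour. Cst7 was seen above 1 CPM in WT microglia alone among the WT libraries, at 11.4 CPM (9.62 to 13.5), and WT AMs held no Cst7 UMI. Cd9 was highest in WT AMs at 3667 CPM and microglia at 1407 CPM, against 330 CPM in CMs, 42.0 CPM in KCs and 21.2 CPM in SMs. Cd63 was highest in CMs at 1167 CPM and microglia at 565 CPM, with 54.0 CPM in AMs, 14.5 CPM in SMs and 10.3 CPM in KCs. The intervals of neighbouring tissues did not overlap for Spp1, Cd9, Cd63 and Lgals3 among the Zeb2fl/fl libraries. With the Nr1h3fl/fl WT library in place of the other WT KCs, Cd9 in KCs (9.16 CPM) fell below SMs, and Spp1 in KCs (0.11 CPM, 2 UMIs) fell within the limit for SMs.

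**Figure D1:**
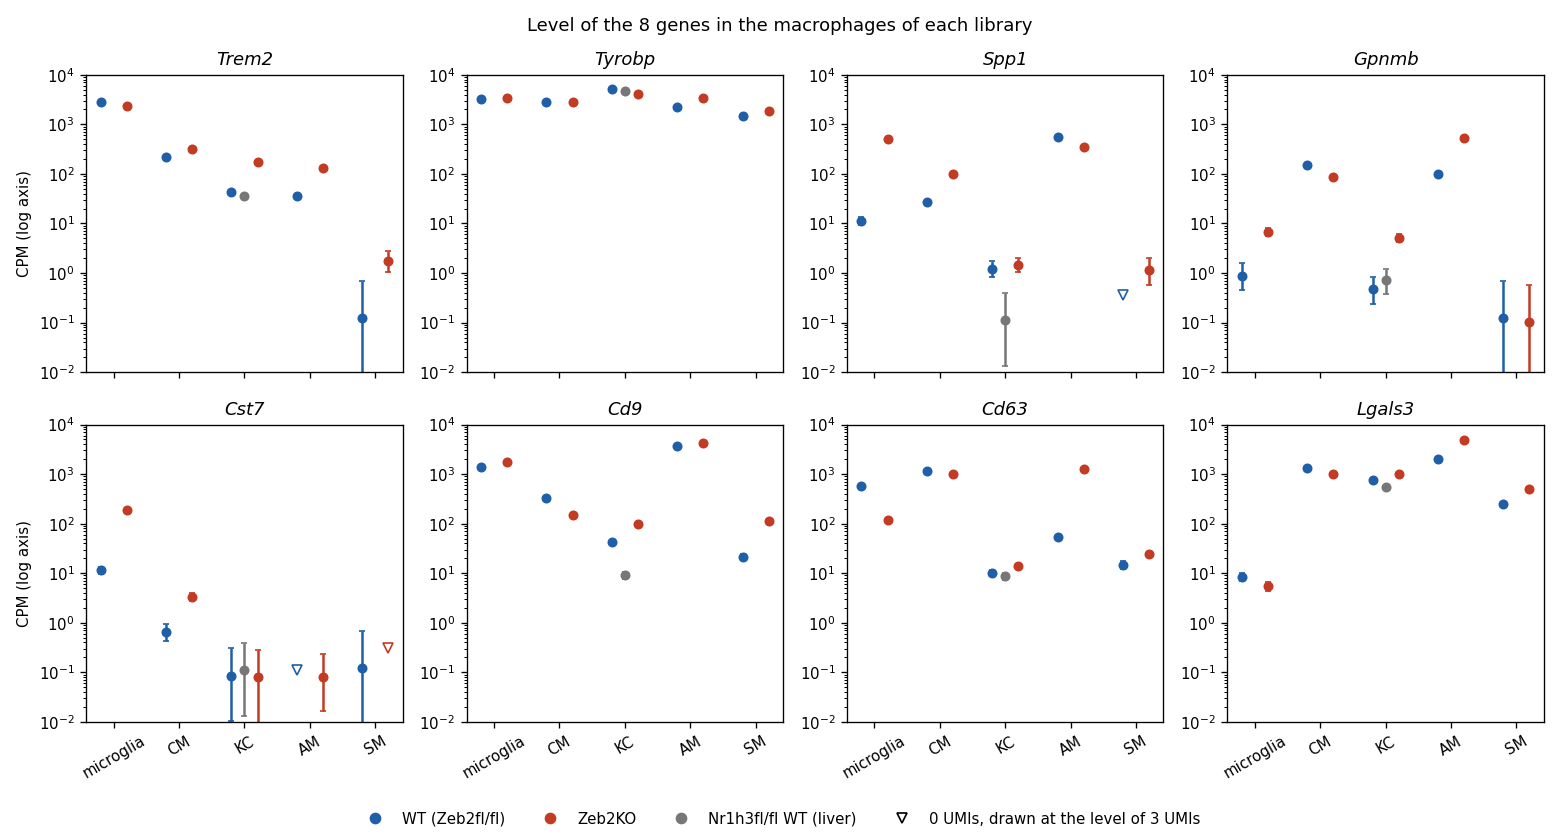
Level of each gene in the 11 libraries, as CPM on a log axis by tissue, with blue points for WT, red for Zeb2KO, grey for Nr1h3fl/fl WT KCs, exact Poisson 95% intervals as bars and open triangles for 0 UMIs at the level of 3. Trem2 reached 2870.4 CPM in WT microglia and 1 UMI in WT SMs, whereas Tyrobp stayed at 1456 CPM or more in every library.

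Tissue differences were tested by edgeR's quasi-likelihood F test, with a shared genotype shift in the model and both libraries of a tissue as its replicates. Of 12095 genes tested, 82.1% passed an adjusted p of 0.05 (Benjamini-Hochberg over all genes), and 7 of 7 members in the fit passed: Trem2 at 0.000729, Lgals3 at 0.0008, Gpnmb at 0.00155, Cd9 at 0.00192, Spp1 at 0.00611, Tyrobp at 0.0194 and Cd63 at 0.0202. Cst7 was too low in most libraries to enter. Tissue could not be told apart from the sort, the dissociation and the instrument, since KCs and AMs had been sequenced on 1 instrument and the others on another. The calls of Tyrobp and Cd63 were lost when single libraries were left out, with adjusted p up to 0.0992 for Tyrobp without WT SMs and up to 0.0687 for Cd63 without Zeb2KO KCs.

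Each tissue was also set against the mean of the others in the same fit. In microglia, 56.5% of genes passed and so did 4 of 7 members, with Trem2 higher by a log2 fold change of 6.26 ± 0.48 (SE, adjusted p = 0.000246), Cd9 by 2.50 and Spp1 by 3.53, and Lgals3 lower at -7.36 ± 0.67. The Spp1 value averages a WT library at 11.2 CPM and a Zeb2KO library at 499 CPM, and among the WT libraries microglia came after AMs and CMs for Spp1. In AMs, where 49.0% of genes passed, Spp1 (6.15), Gpnmb (6.32), Cd9 (4.38) and Lgals3 (3.93) were higher, at adjusted p of 0.00274 or less. In CMs, with 31.4% of genes passing, Trem2 (2.36), Gpnmb (5.92), Cd63 (3.97) and Lgals3 (2.28) were higher. In KCs, with 29.8% passing, Tyrobp (0.95) and Lgals3 (1.53) were higher and Cd9 was lower (-3.02). In SMs, with 52.6% passing, 6 of 7 members were lower, from -1.30 for Tyrobp to -8.61 for Trem2, the Trem2, Spp1 and Gpnmb values resting on at most 17 UMIs per library.

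Which of these genes changed with the loss of Zeb2 was asked within each tissue. A gene was called changed when Zeb2KO and WT differed by at least 2-fold, with 1 CPM added to both levels, and the higher library had at least 20 CPM. This is a rule of size and no test. A gene under 20 CPM in 1 library can enter only through the other, which fixes the direction of its ratio, as for Spp1 and Cst7 in microglia. The members were chosen with earlier results of these data known, so their share called or median ratio beside that of all genes is a description only. The same rule applied to the pair of WT KC libraries, neither of which carries a CRE, called 1.31% of 5552 genes, and 1 of the 4 members that reached 20 CPM there, Cd9.

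In microglia, 8.34% of 5922 genes were called, and 3 of the 6 members that reached 20 CPM: Spp1 and Cst7 were higher and Cd63 was lower. The Spp1 level was 11.2 CPM (138 UMIs) in WT and 499 CPM (8453 UMIs) in Zeb2KO, 44.6-fold higher (37.7 to 53.2) and a log2 ratio of 5.36. The Cst7 level was 11.4 CPM in WT and 185 CPM in Zeb2KO, 16.2-fold higher (13.7 to 19.3). The share of thinned cells with a UMI went from 0.57% (0.32% to 0.92%) to 12.6% (11.5% to 13.8%) for Spp1 and from 0.60% to 12.5% for Cst7. The Cd63 level was 565 CPM in WT and 116 CPM in Zeb2KO, 4.86-fold lower (4.63 to 5.12), and the share fell from 37.7% to 8.20%. The receptor and its adaptor stayed within 2-fold: Trem2 had 2870.4 CPM in WT and 2369.9 CPM in Zeb2KO, Tyrobp 3213 and 3377 CPM. Cd9 had 1407 CPM in WT and 1750 CPM in Zeb2KO. Gpnmb (0.89 and 6.79 CPM) and Lgals3 (8.43 and 5.49 CPM) stayed under 20 CPM in both. The median log2 ratio over the genes that reached 20 CPM was -0.09, and it was 0.19 over these 6 members.

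Haemoglobin and other erythroid transcripts differed between the microglia libraries, with the list of 8 markers at 610 CPM in WT and 40.0 CPM in Zeb2KO, most of it from Hbb-bs (319 and 26.5 CPM). The neutrophil list stood at 197 CPM in WT and 458 CPM in Zeb2KO, nearly all of it Csf3r in WT (196 CPM), and Ly6g, Retnlg, Mmp9, Ngp and Camp were at 0 in both. The list of colonic mac genes went from 3786 CPM (Cx3cr1 highest, 2923 CPM) to 10030 CPM (Cd74 highest, 6915 CPM), and the monocyte list from 7.54 to 38.5 CPM, of which Plac8 had 36.0 CPM. The part of these cells or their RNA in the member levels was not tested.

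In AMs, 11.7% of 5812 genes were called and 4 of the 7 members that reached 20 CPM, all of them higher in Zeb2KO. Cd63 had 54.0 CPM in WT and 1271 CPM in Zeb2KO, 23.6-fold higher (22.4 to 24.8), and its share of thinned cells went from 3.80% (3.36% to 4.28%) to 56.8% (55.5% to 58.0%). Gpnmb had 99.7 and 519 CPM, 5.21-fold higher (5.01 to 5.42), in 8.55% of thinned WT and 32.0% of thinned Zeb2KO cells. Trem2 had 36.6 and 131 CPM, 3.57-fold higher, in 3.20% and 10.8% of cells. Lgals3 had 1991 and 4775 CPM, 2.40-fold higher, in 80.2% and 95.2% of cells. Spp1 was lower over the library without reaching 2-fold, with 568 CPM in WT and 350.1 CPM in Zeb2KO and a share of 34.5% against 15.1%. In clusters with at least 20 cells of both genotypes it was higher in Zeb2KO in 6 of 8, with a median log2 ratio of 0.11 (-1.01 to 0.71). These clusters leave out AM 1, with 52.3% of Zeb2KO AMs, no WT cell and 22.96 CPM of Spp1. They also leave out AM 8, whose Zeb2KO cells had 3866 CPM, and the library ratio without AM 8 was not computed. Tyrobp (2197 and 3457 CPM) and Cd9 (3667 and 4330 CPM) stayed within 2-fold, and Cst7 had 0 and 3 UMIs. Genes of this tissue as a whole had a median log2 ratio of -0.31, and the 7 members had a median of 1.26. The neutrophil list was at 14.8 CPM in WT and 278 CPM in Zeb2KO AMs, where Cxcr2 alone had 178 CPM and Mmp9, Ngp and Camp were at 0. The monocyte list went from 8.53 to 76.7 CPM (Ly6c2 alone 55.7 CPM) and the Cd74-led list of colonic mac genes from 140 to 716 CPM. The part of these lists in the member levels was not tested.

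In KCs, 4.69% of 5398 genes were called and 2 of the 4 members that reached 20 CPM, both higher in Zeb2KO. Trem2 had 43.8 CPM (41.1 to 46.5) in Zeb2fl/fl WT, 36.0 CPM in Nr1h3fl/fl WT and 177 CPM (172 to 182) in Zeb2KO, 4.05-fold (3.78 to 4.33) above the former and 4.92-fold above the latter. Both WT libraries thus lay well below the Zeb2KO library, and they differed from each other by 1.22-fold. Cd9 had 42.0 CPM in Zeb2fl/fl WT, 9.16 CPM in Nr1h3fl/fl WT and 97.4 CPM in Zeb2KO. For Cd9 the WT libraries differed by 4.59-fold, more than the 2.32-fold between Zeb2fl/fl WT and Zeb2KO. Both values rest on the small cluster KC 14, which held 79.1% of the Cd9 UMIs of Zeb2fl/fl WT KCs: without it the WT libraries were at 9.12 and 9.16 CPM and the log2 ratio of Zeb2KO over Zeb2fl/fl WT went from 1.19 to 2.97. Against the Nr1h3fl/fl WT library, 8.29% of 5755 genes were called and Trem2 and Cd9 were again the members called, with log2 ratios of 2.27 and 3.28. Tyrobp (5081 and 4151 CPM) and Lgals3 (745 and 1007 CPM) stayed within 2-fold, and Spp1, Gpnmb, Cst7 and Cd63 were under 20 CPM in all 3 KC libraries. The erythroid list was at 222 CPM in Zeb2fl/fl WT, 78.6 CPM in Nr1h3fl/fl WT and 5.99 CPM in Zeb2KO KCs, and the list of 6 genes of dividing cells, none at 0, at 112, 163 and 343 CPM. Their part in the member levels was not tested.

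In SMs, 3.19% of 6183 genes were called and 2 of the 4 members that reached 20 CPM. Cd9 had 21.2 CPM (18.2 to 24.6) in WT and 112 CPM (105 to 119) in Zeb2KO, 5.28-fold higher (4.49 to 6.23). Lgals3 had 253 and 508 CPM, 2.01-fold higher (1.90 to 2.11), which sat at the limit and fell short of it under 3 other settings, at log2 ratios of 0.96 to 0.99. Trem2 remained nearly absent, with 1 UMI in WT and 17 UMIs in Zeb2KO (a ratio of 14.5 with a counting interval of 2.27 to 605), and Spp1 had 0 and 11 UMIs. Tyrobp (1456 and 1838 CPM) and Cd63 (14.5 and 24.0 CPM) stayed within 2-fold. Over the same cells the plasma cell list went from 30.8 CPM in WT to 103 CPM in Zeb2KO, the B cell list from 299 to 201 CPM and the Cd74-led list of colonic mac genes from 3532 to 8417 CPM, and their part in the member levels was not tested.

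In CMs, 1.58% of 5119 genes were called and 2 of the 7 members that reached 20 CPM. Spp1 had 27.8 CPM in WT and 97.8 CPM in Zeb2KO, 3.52-fold higher (3.298 to 3.76). The cluster CM 5, with 782 Zeb2KO and 23 WT cells, weighed heavily at 285 CPM in its Zeb2KO cells, and the ratio without it was not computed. A single Zeb2KO cell held 661 of the 3559 Spp1 UMIs, a spread between cells that the counting interval does not cover. Cd9 had 330 and 153 CPM, 2.16-fold lower (2.09 to 2.23). Gpnmb (152 and 85.8 CPM), Lgals3 (1328 and 989 CPM), Cd63 (1167 and 1016 CPM), Trem2 (222 and 312 CPM) and Tyrobp (2828 and 2845 CPM) stayed within 2-fold. Cst7 had 0.65 and 3.38 CPM. The Cd74-led list of colonic mac genes went from 46372 to 31239 CPM, the erythroid list from 42.6 to 4.51 CPM, the B cell list from 42.9 to 8.85 CPM and the T and NK cell list from 21.2 to 6.46 CPM, and their part in the member levels was not tested.

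**Figure D2:**
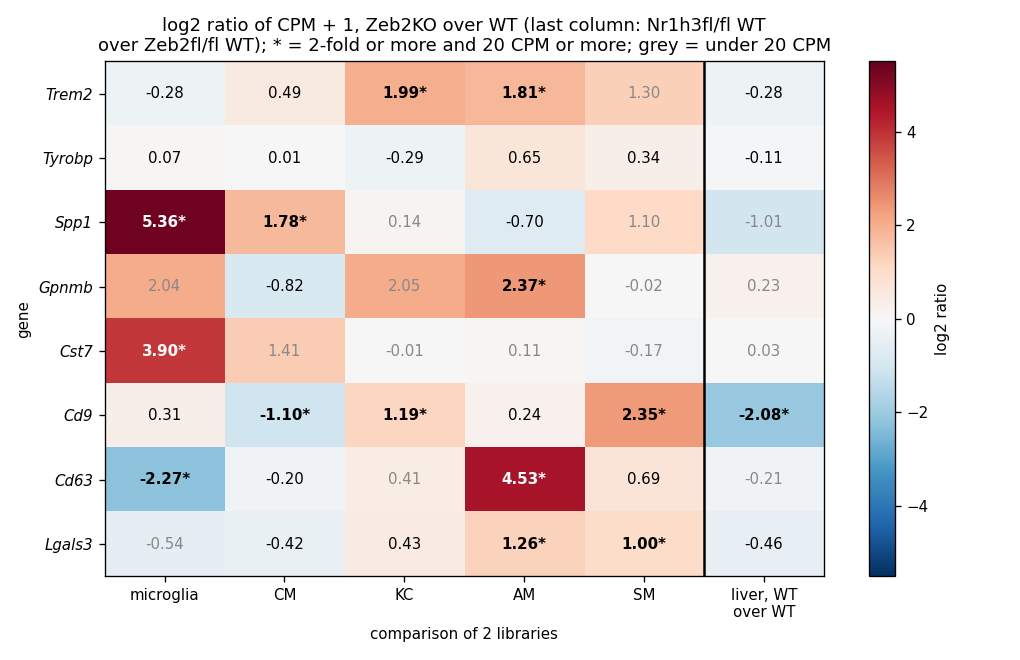
Log2 ratio of Zeb2KO over WT for each gene in each tissue (1 CPM added to both), as a colour grid with the ratio of the pair of WT KC libraries in the last column, an asterisk on members called by the 2-fold rule and grey numbers where both libraries were under 20 CPM. Cd63 stood at -2.27 in microglia and 4.53 in AMs, and Spp1 at 5.36 in microglia and -0.70 in AMs.

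Across the 5 tissues, no member was called in more than 2 tissues other than Cd9, which was called in 3 with different signs. Trem2 was higher in 4 of 5 tissues with a mean log2 ratio of 1.06 ± 0.95 (SD, n = 5 pairs), and an exact two-sided sign-flip permutation test gave p = 0.125. Spp1 had a mean of 1.54 ± 2.33 (SD, n = 5 pairs, exact permutation p = 0.188) and Cd63 of 0.63 ± 2.47 (SD, n = 5 pairs, exact permutation p = 0.625). For the other members this exact p lay between 0.25 and 0.375, and 0.0625 is the smallest that 5 pairs can give. Pairs under 20 CPM in both libraries were kept in these means. They were Trem2 in SMs (1 and 17 UMIs), Spp1 in KCs and SMs, and Gpnmb in microglia, KCs and SMs. Cst7 outside microglia, Cd63 in KCs and Lgals3 in microglia were such pairs too. When a shift shared by all tissues was tested in edgeR (quasi-likelihood, tissue as a block), 0.0% of 12095 genes passed an adjusted p of 0.05 (1441 had an unadjusted p under 0.05). Trem2 had a log2 fold change of 1.24 ± 0.46 (SE, adjusted p = 0.390) and Gpnmb of 1.89 ± 0.75 (SE, adjusted p = 0.405). DESeq2 with the same design called 359 genes, 242 of them higher, with no member among them, and gave Trem2 an adjusted p of 0.0688.

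Shares of cells with a UMI were compared with other cell types of the same library, since free RNA from macs can reach any droplet. In liver, 143 B cells of the WT library (median 3548 UMIs against 5335 in KCs) held a Trem2 UMI in 1.40% (0.17% to 4.96%) of thinned cells and the pooled cells of the clusters left out as endothelial (227 cells, median 6703 UMIs) in 0.88% (0.11% to 3.15%). KC 11, among the latter clusters, was close to the other cells in mac markers (mean log2 fold -0.10), so these cells are no clean background. The 3.82% of WT KCs lay above the second interval but within the first, so it was not separated from the background in B cells. In the Zeb2KO liver, Trem2 was seen in 15.2% (14.1% to 16.4%) of KCs, 6.20% (2.72% to 11.9%) of B cells and 8.82% (6.35% to 11.9%) of the endothelial cells, and the KC share lay above both. Tyrobp was seen in 98.6% of WT KCs, 92.1% of the endothelial cells and 65.0% of B cells, and Lgals3 in 46.3%, 39.2% (32.8% to 45.9%) and 21.7% (15.2% to 29.3%). For Cd9, 7.39% of Zeb2KO KCs lay within the B cell interval of that library (0.85% to 7.75%), so this share was not separated from that of B cells. It lay below the 15.6% of endothelial cells of that library. Those give no background for Cd9, since endothelial clusters of Zeb2KO colon had 2196 CPM of it.

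In spleen, Cd9 was seen in 2.16% of WT SMs and in 1.52% (0.70% to 2.87%) of B cells of that library (median 2061 UMIs), and in 11.6% (10.4% to 12.8%) of Zeb2KO SMs against 4.90% (2.93% to 7.64%) of B cells (median 3032 UMIs). The WT share was thus within the interval of B cells and the Zeb2KO share above it, but the Zeb2KO share was not separated from that of dendritic cells (12.2%, 4.08% to 26.2%, 41 cells) or of T and NK cells (6.52%, 1.37% to 17.9%, 46 cells). Lgals3 was seen in 20.9% of WT and 35.4% of Zeb2KO SMs and in 6.59% and 5.99% of B cells, but these SM shares were not separated from those of dendritic cells (21.6%, 9.83% to 38.2%, in WT and 36.6%, 22.1% to 53.1%, in Zeb2KO). Erythroid cells also went from 13.5% (8.45% to 20.1%, 148 cells) to 26.2% (17.0% to 37.3%, 80 cells) for Lgals3. No Trem2 UMI was found in 592 thinned WT or 367 thinned Zeb2KO splenic B cells. In colon, the fibroblast cluster held Cd63 in 83.2% (WT) and 76.4% (Zeb2KO) of cells, above the 63.0% and 54.4% of CMs, and Cd9 in 42.0% and 34.96% against 20.1% and 11.3% of CMs, while Trem2 was seen in 1.53% and 8.94% of fibroblasts and 18.0% and 24.99% of CMs. Spp1 was seen in 2.30% of WT and 4.95% of Zeb2KO CMs and in 0.76% (0.02% to 4.18%) and 2.44% (0.51% to 6.96%) of fibroblasts, so neither CM share was separated from that of fibroblasts. The CM shares of Trem2 were not separated from the few WT smooth muscle cells (10.3%, 2.87% to 24.2%, 39 cells) and Zeb2KO plasma cells (18.2%, 5.19% to 40.3%, 22 cells). In brain and lung no cluster of another cell type was large enough to give such a share.

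**Figure D3:**
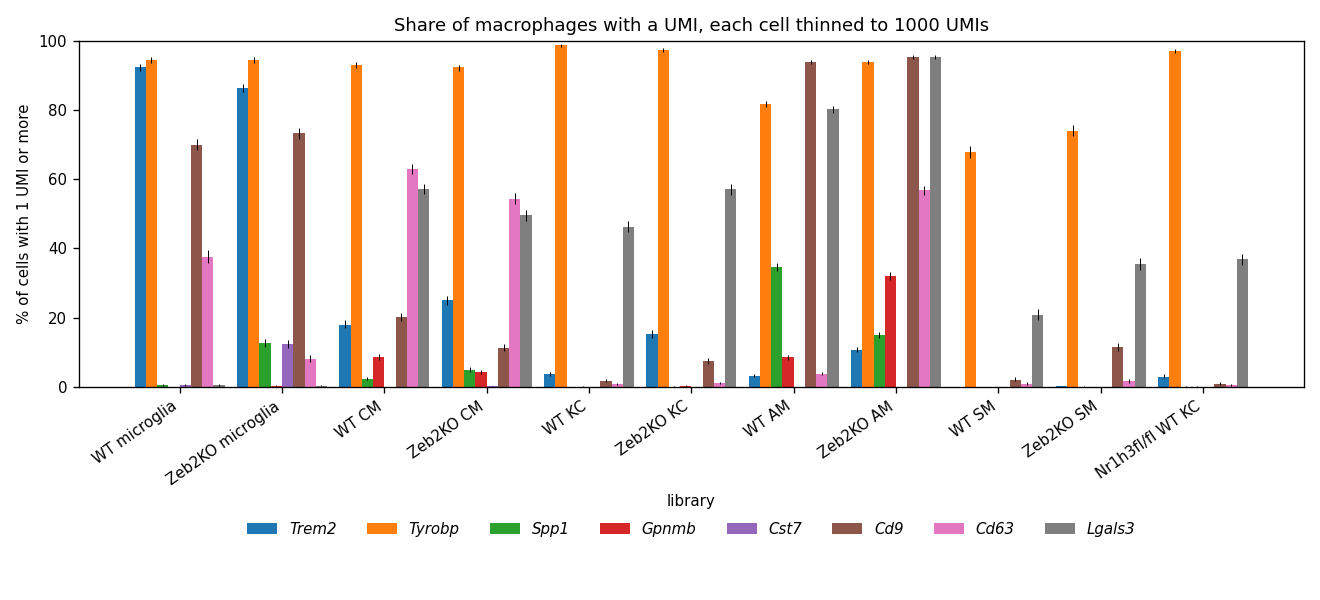
Share of cells, each thinned to 1000 UMIs, with at least 1 UMI of each gene, by library, in percent with exact binomial 95% intervals (Clopper-Pearson). For Cd63 the bars stand at 3.80% in WT and 56.8% in Zeb2KO AMs, and at 37.7% and 8.20% in microglia, and Trem2 was seen in 92.3% of WT microglia.

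Clusters of cells within each tissue, formed without the 8 members, showed how far the differences were spread over the cells. In microglia, KCs and AMs, WT and Zeb2KO cells lay mostly in different clusters: microglia 0 and 2 (50.6% and 45.8% of WT) against 1, 3 and 4 (40.9%, 29.8% and 19.5% of Zeb2KO), KC 0 against KC 1, and AM 0 (51.9% of WT) against AM 1 (52.3% of Zeb2KO). The main SM clusters were split as well: SM 0 held 1.04% of WT and 44.3% of Zeb2KO, SM 1 26.2% and 1.56%, and SM 3 22.4% and 1.10%. In CMs some clusters were shared, such as CM 0 (17.6% of WT and 8.39% of Zeb2KO) and CM 7 (6.29% and 9.89%). Others were not, such as CM 2 (19.3% and 1.98%) and CM 5 (0.50% and 19.1%). In Zeb2KO microglia, Spp1 ranged over 6 clusters from 173 to 4005 CPM and Cst7 from 90.4 to 762 CPM, so the lowest Zeb2KO cluster held more Spp1 than the highest WT cluster (118 CPM) and more Cst7 than the highest WT cluster (57.8 CPM). Cd63 was at 447 to 2265 CPM in 3 WT clusters and at 20.1 to 90.9 CPM in 5 of 6 Zeb2KO clusters.

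The cluster microglia 5 stood apart in both genotypes, with 82 WT and 118 Zeb2KO cells and with Ifitm1, Lgals3, Gpnmb, Lilrb4a and Gas2l3 as its leading genes. In its Zeb2KO cells Spp1 was at 4005 CPM, Cst7 at 762 CPM, Cd9 at 4215 CPM, Cd63 at 866 CPM, Gpnmb at 116 CPM and Lgals3 at 83.3 CPM. In its WT cells Cd63 was at 2265 CPM, Cd9 at 3552 CPM, Lgals3 at 178 CPM, Spp1 at 118 CPM, Cst7 at 57.8 CPM and Gpnmb at 4.28 CPM. This small cluster was 3.64% of Zeb2KO microglia and held 35.8% of their Spp1 UMIs, 76.5% of those of Gpnmb, 67.7% of Lgals3, 33.3% of Cd63 and 18.4% of Cst7, but 5.78% of Trem2 and 5.75% of Tyrobp. Because the cluster was partly defined by these cells' own profiles, these values are a description.

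In AMs, the level of Cd63 was higher in Zeb2KO than in WT cells in 8 of 8 clusters with at least 20 cells of both genotypes. It was so by at least 2-fold in each, with a median log2 ratio of 3.54. The Zeb2KO side was only 34, 21, 24 and 29 cells in AM 0, 3, 4 and 11. AM 1, with 52.3% of Zeb2KO AMs and no WT cell, could not be compared. By the study's account, AMs without EpCam in Itgax-crexZeb2fl/fl mice had kept an allele of Zeb2. Shared clusters may hold such cells, which was not tested. Trem2 was higher in 7 of 8 and Gpnmb in 7 of 8 of these clusters. Gpnmb was lower in AM 2, which held 27.3% of Zeb2KO AMs (log2 ratio -0.50). Lgals3 was higher in 8 of 8 but by at least 2-fold in 1, with a median log2 ratio of 0.45. Spp1 in Zeb2KO AMs was concentrated instead: AM 8, led by C1qa, C1qb and C1qc and holding 234 Zeb2KO cells (3.74% of these macs), had 3866 CPM and 55.2% of all Spp1 UMIs, whereas AM 1, the largest Zeb2KO cluster (3284 cells), had 22.96 CPM. Cd63 was near in these clusters, at 1576 and 1494 CPM, and Lgals3 was at 6779 and 5216 CPM. AM 8 also held 16.7% of the Trem2 UMIs of Zeb2KO AMs, at 436 CPM.

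In KCs, Trem2 was higher in Zeb2KO cells in 8 of 8 shared clusters, 7 of them by at least 2-fold, with a median log2 ratio of 1.37. Outside the macs of these livers Trem2 was higher in Zeb2KO too. It had 21.5 CPM in WT and 100 CPM in Zeb2KO B cells, and 23.6 and 113 CPM in the endothelial clusters. The part of free RNA in the ratios of the shared KC clusters was not tested. Not all of these clusters had KC genes in the lead: KC 12 was led by Cd209a, a gene of the dendritic cell list, with Ubd, Ccl22 and Ccl17 (log2 ratio 1.22) and KC 14 by Alox15 and Prg4 (1.09), with no gene of the KC marker list among the leading genes of either. The few Zeb2KO cells in KC 0, the main WT cluster, had 242 CPM of Trem2 against 42.3 CPM in the WT cells there. The level was 261 CPM in KC 6, a cluster with Mmp12, Cx3cr1, Ccr2 and Trem2 itself among its leading genes and mostly of Zeb2KO cells, and 139 CPM in KC 1, the main Zeb2KO cluster, whose leading genes included Siglecf. By the study's account, KCs without SiglecF in Clec4f-crexZeb2fl/fl mice had kept an allele of Zeb2. The levels in KC 0 and KC 6 may therefore not be those of cells without Zeb2. For Cd9, the cluster KC 14, led by Alox15, Prg4, Slpi and Fn1, weighed heavily in the library values. Its 69 Zeb2fl/fl WT cells had 877 CPM, its 47 Zeb2KO cells 882 CPM and 21.8% of the Cd9 UMIs of Zeb2KO KCs, and the Nr1h3fl/fl WT library had 1 such cell. Without KC 14, Zeb2KO KCs had 78.1 CPM of Cd9.

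In SMs, Cd9 was higher in Zeb2KO cells in 8 of 8 shared clusters, each by at least 2-fold, with 44.0 to 176 CPM in the Zeb2KO cells. SM 7 among them was led by the B cell genes Fcer2a, Tnfrsf13c and Cd72 and had 33.8 CPM in WT and 86.8 CPM in Zeb2KO. Cell numbers were uneven, with 43 WT and 1565 Zeb2KO cells in SM 0 and 1086 and 55 in SM 1. The study presumed that SMs with CRE that clustered close to WT had kept an allele. Whether shared SM clusters held such cells was not tested, so their ratios may not be those of cells without Zeb2. In CMs, Spp1 was higher in 11 of 11 shared clusters (6 by at least 2-fold), Cd9 lower in 11 of 11 (1 by at least 2-fold) and Gpnmb lower in 10 of 11 (7 by at least 2-fold). The study told Zeb2-deficient CMs by higher Zeb2, Ms4a1 and Siglecf. It presumed that CMs with CRE that clustered with WT had kept an allele. Only CM 5 had Ms4a1 among its leading genes, with 19.1% of the Zeb2KO CM cells before other cell types were left out. Ratios in the other clusters may therefore not be those of cells without Zeb2. CM 5, led by Hp, Ms4a1 and Mmp8 and made up of 782 Zeb2KO and 23 WT cells, held 59.4% of the Spp1 UMIs of Zeb2KO CMs at 285 CPM. CM 0, led by H2-M2, Lag3 and Zmynd15, held 42.5% of Gpnmb and 78.9% of Cst7 UMIs of Zeb2KO CMs.

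**Figure D4:**
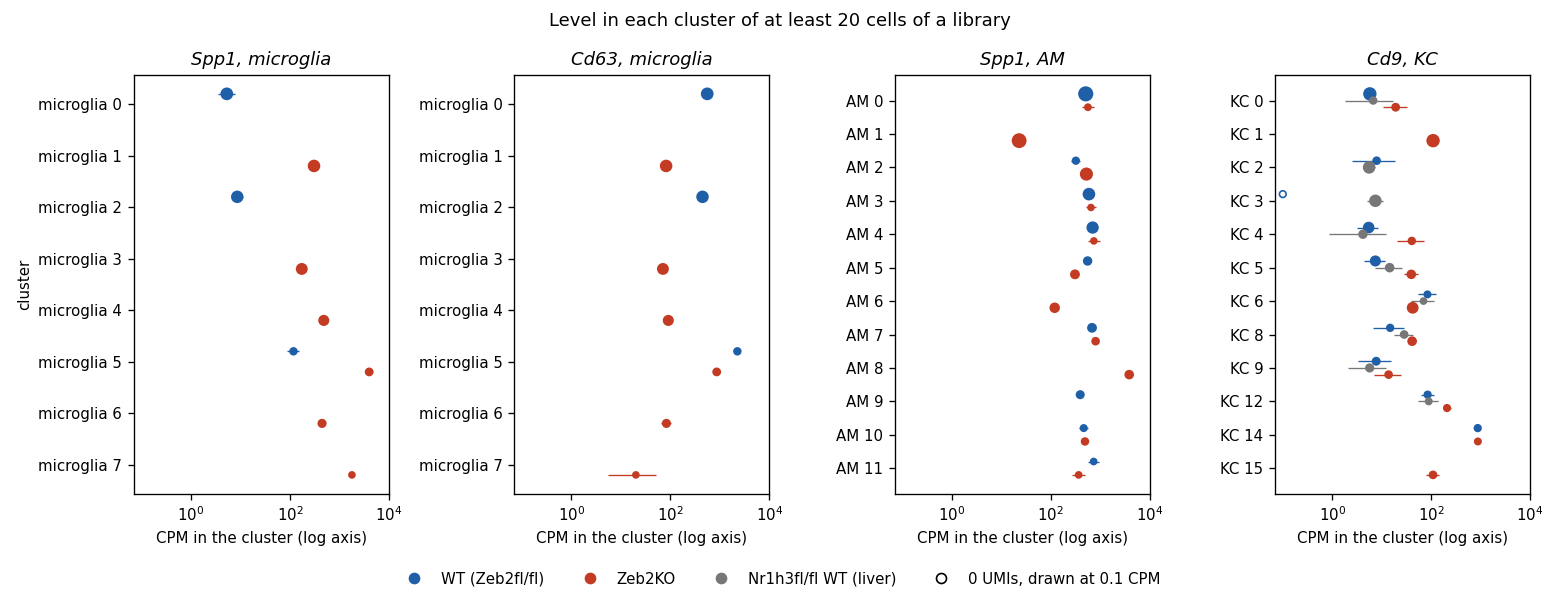
Level of Spp1 and Cd63 in microglia clusters, Spp1 in AM clusters and Cd9 in KC clusters with at least 20 cells of a library, as CPM on a log axis, with points for WT (blue), Zeb2KO (red) and Nr1h3fl/fl WT (grey) cells, larger for more cells, and exact Poisson 95% intervals as bars. Spp1 ranged from 173 to 4005 CPM over the Zeb2KO microglia clusters and from 22.96 to 3866 CPM over the Zeb2KO AM clusters.

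Co-expression was measured as Pearson's r of log-normalised counts across cells of 1 library, each thinned to 1000 UMIs, which share that library and depth. Values were weak and depended on depth (the pair of Cd63 and Lgals3 in Zeb2KO AMs had 0.23 thinned and 0.52 unthinned), so no relation is read from them. The highest values were in Zeb2KO AMs (6252 cells), where r was 0.23 for Cd63 and Lgals3, 0.20 for Cd9 and Cd63, 0.19 for Cd9 and Lgals3 and 0.13 for Gpnmb with either Cd63 or Lgals3. In WT AMs (6974 cells) the highest was 0.11, for Cd9 and Lgals3. In Zeb2KO microglia (3243 cells), r was 0.18 for Spp1 and Cd63, 0.15 for Spp1 and Cst7 and 0.15 for Gpnmb and Cd63, and without microglia 5 these became 0.09, 0.10 and -0.01. Trem2 reached 0.10 with Cst7 and Cd9 in Zeb2KO microglia and with Cd63 in Zeb2KO CMs, its highest values with any member. The pair of Spp1 and Gpnmb in Zeb2KO KCs stood at 0.17, but 1 thinned cell held both.

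Counting members per thinned cell, 5 or more of the 8 were seen together in 3.89% of WT and 29.2% of Zeb2KO AMs and in 0.74% of WT and 4.26% of Zeb2KO microglia. In CMs the share was 4.01% in WT and 2.41% in Zeb2KO. No WT KC and no SM of either genotype held 5 or more, and in Zeb2KO KCs the share was 0.052%. The mean number of members per cell was 3.06 in WT and 3.99 in Zeb2KO AMs, and 2.96 and 2.88 in microglia.

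**Figure D5:**
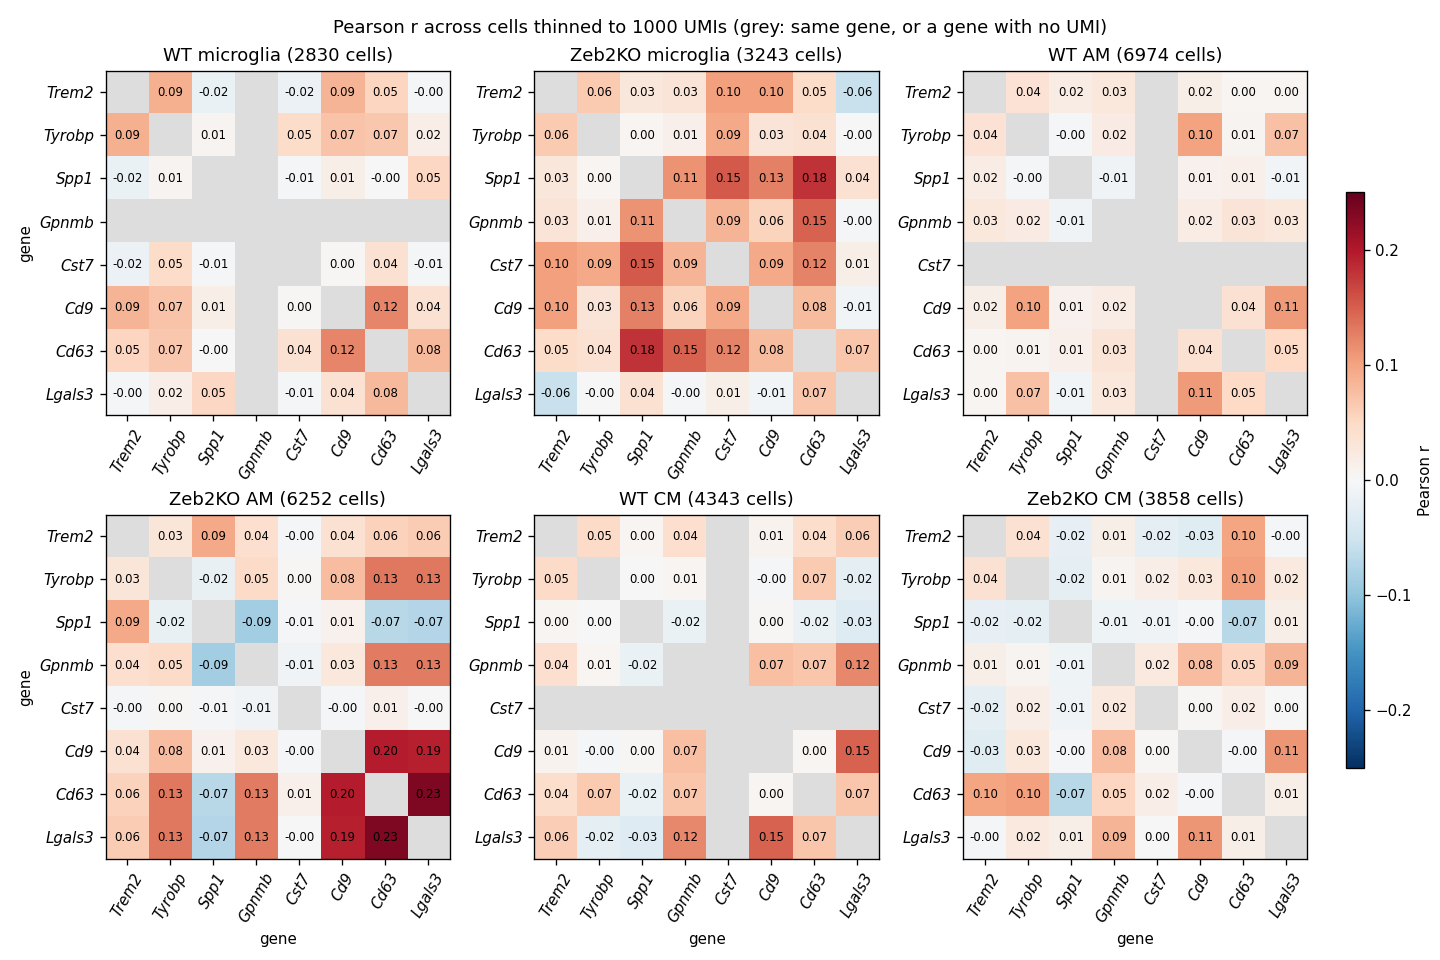
Pearson's r between each pair of members across cells thinned to 1000 UMIs, drawn as a colour grid for WT and Zeb2KO microglia, AMs and CMs, with grey for a gene without a UMI. The Zeb2KO AM grid holds the highest value, 0.23 for Cd63 and Lgals3, and the Trem2 rows stay at 0.10 or less.

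Lists of partners and relatives of the members, also chosen with earlier results known, were described by the same 2-fold rule. Genes called here with a WT level under 20 CPM entered through Zeb2KO alone, which fixed the direction of their ratio. Of 17 genes of TREM2 and TYROBP signalling, 11 to 14 reached 20 CPM in a tissue, and 0 were called in microglia, CMs, AMs and SMs. In KCs 2 of 13 were called, both higher: Trem3 (3.19 CPM in WT, 26.0 CPM in Zeb2KO), a relative of Trem2, and Sirpb1a (2.34 and 20.1 CPM), a receptor that pairs with TYROBP. Both entered through Zeb2KO alone and lay under the alternative floor of 50 CPM. Of 24 other genes known from disease-associated macs, 7 were higher and 2 lower among 20 in microglia, 9 higher and 1 lower among 22 in AMs, 4 higher and 1 lower among 21 in KCs, 3 higher among 20 in SMs and 1 lower among 21 in CMs, the lipase gene Lpl (40.7 and 16.3 CPM, named after its value was seen). The share of all genes called was 8.34% in microglia, 11.7% in AMs, 4.69% in KCs, 3.19% in SMs and 1.58% in CMs.

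Apoe, which encodes a carrier of lipids, had 13.9 CPM in WT and 1553 CPM in Zeb2KO AMs. Itgax, the CD11c gene, was higher in Zeb2KO KCs (3.07 and 34.1 CPM), microglia (5.03 and 36.8 CPM) and SMs (28.9 and 173 CPM). The chemokine genes Ccl3 and Ccl4 were higher in AMs (215 and 1076 CPM for Ccl3), KCs (36.6 and 196 CPM) and microglia (1387 and 4662 CPM), and Ccl3 also in SMs. Igf1, a growth factor gene, had 28.3 CPM in WT and 176 CPM in Zeb2KO AMs, while Lyz2 (lysozyme) had 332 CPM in WT and 41.7 CPM in Zeb2KO microglia. The median log2 ratio of this list was 0.53 in microglia, 0.83 in AMs, 0.29 in SMs, 0.08 in CMs and -0.07 in KCs, against medians over all genes of -0.09, -0.31, -0.02, 0.05 and 0.02.

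Of 12 genes of resting microglia, 2 of 12 were lower in Zeb2KO microglia, the fractalkine receptor Cx3cr1 (2923 and 926 CPM) and Selplg (3756 and 1637 CPM), and Cx3cr1 was higher in Zeb2KO KCs (7.37 and 72.0 CPM). Among 12 relatives of Cd9 and Cd63, 4 of 12 were lower in Zeb2KO microglia (Tspan4, Tspan13, Tspan3 and, named after its value was seen, Cd81) and Tspan32 was higher. Tspan4 had 151 and 13.1 CPM. In AMs Cd37 (14.0 and 84.8 CPM) and Cd82 (27.0 and 81.6 CPM) were higher among 8. Of the 6 galectin relatives, Lgals1 was higher in KCs (15.8 and 53.4 CPM) and SMs (81.9 and 185 CPM). Among the 7 relatives and targets of cystatin F, Ctsl (cathepsin L) was higher in microglia (1266 and 3056 CPM), Cst3 and Lgmn in AMs and Cstb in SMs. Of the 6 genes of MiT/TFE factors and related regulators, which govern lysosomal genes, Bhlhe40 was higher in microglia (1.46 and 25.6 CPM), KCs and CMs. Among 7 receptors of osteopontin, Itga4 was higher (0.65 and 25.1 CPM) and Itgav lower (66.3 and 22.7 CPM) in microglia, and Cd44 (2767 and 966 CPM) and Itga4 (43.4 and 9.68 CPM) were lower in AMs.

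The genes whose levels across the 11 libraries were most like each member were found among 8022 genes by Pearson's r of log2 CPM, a likeness fixed largely by tissue and of no more than 11 points. The 3 highest were Vps72 (0.98), Myg1 and Borcs7 for Trem2, Med10 (0.96), Tmed10 and Fcf1 for Tyrobp, Uchl3 (0.95), Cd101 and Mt2 for Spp1, and Npm3 (0.96), Sema4a and S100a10 for Gpnmb. For Cst7 they were Ptger3 (0.99), Pdcd1 and Dcaf4, for Cd9 Ramp1 (0.96), Alas1 and Cwc25, for Cd63 Sptssa (0.94), Smim3 and Ptgr1, and for Lgals3 Cd36 (0.99), Fxyd5 and Gtf2h5. Among the members, Spp1 and Cd9 were most alike (0.87) and Cst7 and Lgals3 most opposed (-0.84), and Trem2 had 0.55 with its adaptor Tyrobp. Across cells within libraries, the highest median r was 0.13 for Tyrobp with Fcer1g, an adaptor of the same kind, and for the other members no gene reached a median of 0.1, the highest being 0.08 for Lgals3 with Ftl1 and 0.05 for Trem2 with Ctsd. Single libraries held higher values, such as 0.32 for Cd63 with Lyz2 in Zeb2KO CMs and 0.30 for Spp1 with Tmsb10 in Zeb2KO AMs.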

How the data were processed

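Per the labels and the study's methods, reads had been processed with Cell Ranger (mapping with STAR, mm10), and the authors deposited UMI counts of 27998 genes per cell barcode for 11 libraries. The deposited counts were used as they were, and CPM was computed here. The Nr1h3-deficient library was not analysed here. The 8 members and all gene lists were chosen with earlier results of these data known. The smooth muscle list, and the limits by which clusters were left out as other cell types, were chosen with the clusters in view.

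Barcodes over 3 median absolute deviations from their library's median in log UMIs, log genes or, upwards, mitochondrial share were removed. No doublet caller was run. Cells of a tissue were clustered (scanpy 1.11.5, leidenalg 0.10.2, 2000 variable genes without the members, 30 components, 15 neighbours, resolution 0.8). Their UMIs were added up for each library (8204913 to 42983881). Tests used edgeR 4.0.16 in R 4.3.3 (TMM, filterByExpr, quasi-likelihood, tissue and genotype as terms, 10 libraries, threshold 0.05), with DESeq2 1.42.0 as an alternative. Changes put into simulated counts were recovered, but they were the same in every tissue, unlike those seen here. That check does not cover changes that differ between tissues. Within a tissue there was 1 library per group, so no test was made. Shares used cells thinned to 1000 UMIs, which left out 269 WT SMs and no other cell. Genes outside the 8 were named when called changed in a tissue, at most 6 per list by size of the log2 ratio (exceptions are marked), or as the 3 most like a member. Intervals (95%, exact Poisson or Clopper-Pearson) and the limit of 3 counts behind a 0 cover counting error only. Promoter windows came from RefSeq (GRCm38.p6) and gene positions from GENCODE (GRCm38). Alternatives covered normalization, filters, pseudocount, floor, fold, the cells kept, thinning depth and leaving out libraries. Those on the spleen cluster led by B cell genes, KC 14, microglia 5 and AM 8 were chosen after seeing the data, and those on microglia 5 and AM 8 covered co-expression only.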

Additional observations from a re-analysis of the deposited data

Results flagged for a closer look

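The log2 ratio of Cd9, Zeb2KO over WT, had opposite signs between tissues, at -1.10 in CMs against 1.19 in KCs and 2.35 in SMs, all past 2-fold. The log2 ratio of Cd63 was -2.27 in microglia and 4.53 in AMs. These values were picked out because single libraries of the same contrast moved in opposite directions in different tissues, and with 1 library per group the differences between tissues were not tested. Every setting that was tried kept the sign of these 5 ratios, reaching from -1.14 to -1.003, 1.12 to 3.28 and 2.02 to 2.45 for Cd9 in CMs, KCs and SMs, and of -2.28 to -2.18 and 4.44 to 4.82 for Cd63 in microglia and AMs. Beside them, the median log2 ratio of all genes that reached 20 CPM was 0.05 in CMs, 0.02 in KCs, -0.02 in SMs, -0.09 in microglia and -0.31 in AMs. In KCs the Cd9 value turned on KC 14, the cluster led by Alox15, and was 2.97 without it. Within CM clusters shared by both genotypes Cd9 was lower in 11 of 11 but by at least 2-fold in 1, with a median log2 ratio of -0.66. The part of the mix of clusters in the CM value was not tested. No group held enough libraries to look for outlying samples.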

How the results depend on the processing

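Of the log2 ratios recomputed under other settings, 372 kept their call (changed or not, and the direction of those called) and 4 did not. Ratios of members under 20 CPM or near 0 were not called and moved more, such as Trem2 in SMs (0.40 to 3.07) and Cst7 in AMs (-0.08 to 0.85). Lgals3 in SMs fell below it with dividing clusters left out, without the spleen cluster led by B cell genes and with a pseudocount of 5 CPM (0.96 to 0.99), so 1 member in place of 2 was called in SMs under each. Without the Alox15-led liver cluster, or with a floor of 50 CPM, 0 members were called between the pair of WT KC libraries in place of 1, and the Cd9 ratio between them was 0.00594 in place of -2.08. The count of genes with a common Zeb2KO shift was 0, and 2 with library totals only, 3 without a filter on low counts, 359 in DESeq2, and 0 to 1 with pairs left out (1 without the SM pair). Cst7 entered that test without the filter, at a log2 fold change of 3.11 and an adjusted p of 0.151. The adjusted p of Trem2 was 0.334 to 0.619 in the other edgeR settings with the block and 0.0688 in DESeq2. With the tissue left out of the model as the replicate block, 0 genes were called and 102 had an unadjusted p under 0.05. The pairing comes from the tissue and the littermate controls, and the block moved no call. Leaving out libraries ended the tissue call of Tyrobp 3 times (adjusted p 0.0539 to 0.0992) and of Cd63 5 times (0.0616 to 0.0687). The co-expression values of Zeb2KO microglia that changed sign without microglia 5 were Spp1 with Gpnmb (-0.011) and Gpnmb with Cd63 (-0.0083). Of the other co-expression values, 29 moved, mostly upwards in unthinned cells. Of shares recomputed in unthinned cells or in cells thinned to 500 UMIs, 137 left their interval and 39 did not. Values of Cst7 in KCs and AMs and of Trem2, Spp1, Gpnmb and Cst7 in SMs rest on 0 to 17 UMIs per library.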

Other observations

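Outside the macs, Cst7 was found in the T and NK cell clusters of the spleen, at 30.6 CPM (91 WT cells) and 56.7 CPM (46 Zeb2KO cells). These values lay above that of every WT mac library, but they rest on few UMIs and no counting interval was computed. In thinned cells this was 2.22% (0.27% to 7.80%) and 4.35% (0.53% to 14.8%). Cd9 stood at 2196 CPM in the 24 cells of the endothelial clusters of Zeb2KO colon and at 751 and 535 CPM in colon fibroblasts (WT and Zeb2KO), where Cd63 was at 1876 and 1759 CPM. Spp1 stayed at 43.8 CPM or less in the clusters of other cell types that were looked at.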
